A study of Mus musculus with 12 samples.

Results

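Transcripts of 10 genes that build tight junctions were followed through 12 pancreatic neuroendocrine tumors (PanNETs) of RIP1Tag2 mice. The genes were chosen by symbol and matched to their Ensembl identifiers: the claudins *Cldn1*, *Cldn3*, *Cldn4*, *Cldn6*, *Cldn7*, *Cldn9*, *Cldn10* and *Cldn12*, occludin (*Ocln*) and ZO-1 (*Tjp1*). They are 10 of the 38924 genes in the count tables, and all 10 passed the filter on low counts that left 16645 genes for testing. Every tumor came from the RIP1Tag2 model on the C57Bl6 background, in which the rat insulin promoter drives a viral oncogene in pancreatic beta cells, so that insulinomas arise from these cells. Of the 12 tumors, 4 came from saline-treated controls, 4 from mice given sunitinib, which blocks the receptor kinases of VEGF and PDGF, and 4 from mice given rapamycin, an inhibitor of mTOR, plus sunitinib (R+S). Treatment lasted 4 days and began at 15.5 weeks of age. Tumors are named by the replicate number in their label: controls 1 to 4, sunitinib 5, 6, 8 and 12, and R+S 4, 5, 7 and 10.

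Tight junctions seal the space between neighbouring epithelial or endothelial cells. Claudins, which cross the membrane several times, polymerise into strands that either close this space or leave pores for selected ions, occludin runs along the same strands, and ZO-1 ties them to actin on the cytoplasmic side. In the pancreas, acinar and duct cells carry well-developed tight junctions, islet cells have less extensive ones, and the vessels have their own claudin, *Cldn5*.

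The claudins share a signature in their first extracellular loop: a tryptophan, then glycine, leucine and tryptophan, then a pair of cysteines. The coding sequence of this stretch, from the codon of the leading tryptophan to that of the last cysteine, is shown for 6 of the 8 claudins. It shows how close the neighbours *Cldn6* and *Cldn9*, and *Cldn3* and *Cldn4*, are to each other, beside *Cldn10* and *Cldn12*. The sequences are from GENCODE M21 (GRCm38), written 5′ to 3′ on the strand of the gene, with the codons of the 6 signature residues in capitals. They lie within coding exons, at chr5:134986529-134986633 (plus strand), chr5:134946554-134946658 (minus), chr17:23681151-23681255 (plus), chr17:23683458-23683562 (minus), chr14:118788238-118788339 (plus) and chr5:5508225-5508329 (minus).
Cldn3: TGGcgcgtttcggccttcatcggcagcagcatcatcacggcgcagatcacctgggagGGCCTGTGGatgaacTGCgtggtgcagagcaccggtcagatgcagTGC
Cldn4: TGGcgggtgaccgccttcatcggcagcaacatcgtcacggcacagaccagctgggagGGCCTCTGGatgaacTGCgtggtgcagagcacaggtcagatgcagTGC
Cldn6: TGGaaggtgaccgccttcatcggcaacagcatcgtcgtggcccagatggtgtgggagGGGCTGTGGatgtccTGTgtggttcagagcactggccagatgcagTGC
Cldn9: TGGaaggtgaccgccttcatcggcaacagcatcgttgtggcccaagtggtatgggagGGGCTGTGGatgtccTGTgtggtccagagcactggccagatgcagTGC
Cldn10: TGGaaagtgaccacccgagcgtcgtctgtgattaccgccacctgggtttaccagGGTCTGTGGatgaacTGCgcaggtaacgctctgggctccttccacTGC
Cldn12: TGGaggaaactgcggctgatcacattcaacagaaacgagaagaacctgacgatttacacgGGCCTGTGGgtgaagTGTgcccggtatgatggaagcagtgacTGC
Compared position by position without alignment, *Cldn6* and *Cldn9* shared 100 of 105 bases (95.2%) and *Cldn3* and *Cldn4* shared 94 of 105 (89.5%). *Cldn4* and *Cldn12* shared 32 of 105 (30.5%), but their glycine, leucine and tryptophan codons lie at different positions. That value is therefore no measure of how far apart they are. The stretch of *Cldn10*, the gene with the largest change below, is 102 bases long and was found in 2 of its 3 coding transcripts. The remaining transcript had no match to the signature as searched for, so its form of the loop is not shown. The counts do not separate the transcripts. No 50-base word of any of the 10 genes' transcripts occurred in the transcripts of another gene. *Cldn6* and *Cldn9* lie on opposite strands of chromosome 17 with 137 bases between them, and *Cldn4* and *Cldn3* lie on opposite strands of chromosome 5 with 39279 bases between them. The exon of *Cldn3* overlaps *Wbscr25* on the other strand by 40 bases.

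The tumors had 31872342 to 44215054 reads on genes (median 38526164). Beta-cell markers were present in every tumor (10 of 10 detected), but their summed level in sunitinib tumor 6 was 1996 in CPM, the normalized count per 1e+06 reads on genes, against 31305 to 76701 in the other sunitinib tumors and 38084 to 61541 in controls. Each label carries a code before the tumor number or the treatment, called its prefix here, whose meaning is not stated: all controls carry the same prefix, as do sunitinib 5, 6 and 8, and R+S 5 and 7. Prefixes differ between the groups, so prefix and treatment cannot be told apart and no difference between treatments can be taken within a prefix. Should a prefix mark a mouse, its tumors would not be independent and the p-values below would be too small.

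The level of the 10 transcripts was compared first, as CPM normalized by TMM and divided by the summed exon length in kb. In control tumors *Tjp1* was highest at 30.7 ± 4.53 CPM per kb (mean ± SD, n = 4), followed by *Cldn12* at 11.7 ± 1.68, and the tumors of each lay above all tumors of the genes that followed. *Cldn1* (4.13 ± 1.44), *Cldn3* (3.49 ± 1.97), *Cldn7* (2.99 ± 4.17), *Ocln* (2.20 ± 0.208), *Cldn4* (1.42 ± 1.204) and *Cldn6* (0.774 ± 0.601) came next, each overlapping its neighbour in this order. *Cldn10* (0.0330 ± 0.0266) and *Cldn9* (0.0162 ± 0.0188) were lowest, below the range of *Cldn6*. By their means these were also the lowest 2 in sunitinib and in R+S tumors, where *Cldn10* reached 1.10 ± 0.644 and 0.338 ± 0.129 CPM per kb. In sunitinib tumors, however, its range (0.334 to 1.91) overlapped those of other genes, such as *Cldn6* (0.267 to 10.1), *Ocln* (from 0.484) and *Cldn4* (from 0.159). *Tjp1* had the highest mean in all 3 groups, although among sunitinib tumors its range (11.7 to 31.7) overlapped those of *Cldn12* (8.06 to 13.6) and *Cldn7* (up to 12.6).

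**Figure D1:**
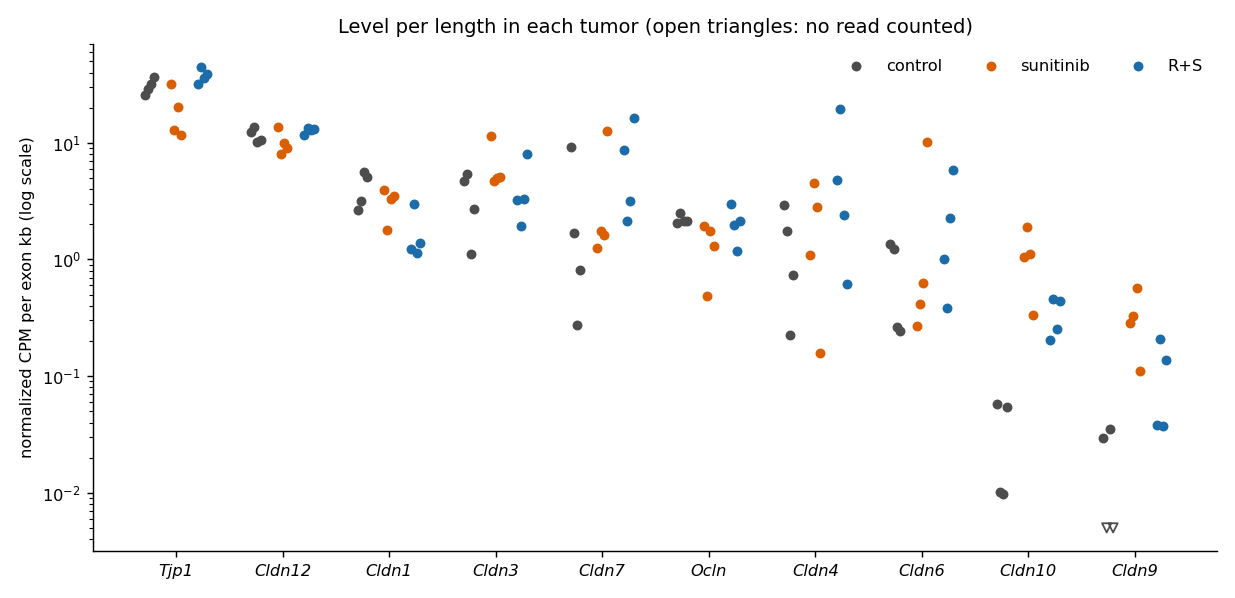
Normalized CPM per exon kb (log scale) of the 10 genes in each of 4 control, 4 sunitinib and 4 R+S tumors, ordered by the control mean. By group mean *Tjp1* and *Cldn12* are highest and *Cldn10* and *Cldn9* lowest in each group, although single tumors depart from this order, such as *Cldn7* at 12.6 in sunitinib 12, where *Tjp1* is at 11.7. Open triangles mark the 2 control tumors in which no *Cldn9* read was counted and are drawn at an arbitrary height.

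*Cldn10* and *Cldn9* rose under sunitinib, by 4.99 and 4.07 on the log2 scale, and *Cldn10* also rose under R+S, by 3.29. The other 8 genes passed the test in no comparison, nor did any of the 10 between R+S and sunitinib. The test was edgeR's quasi-likelihood test in a fit of all 12 tumors, with p-values adjusted over the 16645 genes tested. In sunitinib versus control, 2 of the 10 were higher (*Cldn10* and *Cldn9*) and 0 lower at an adjusted p under 0.05, where 1.93% of all tested genes were higher and 2.55% lower. The 10 genes were chosen with earlier results of these data known, so their counts beside these shares are no test of an excess. *Cldn10* and *Cldn9* also passed the filter on low counts through treated tumors, as given below. At an unadjusted p under 0.05 there were 3 of the 10, against 19.5% of tested genes. In R+S versus control, 1 was higher (*Cldn10*) and 0 lower, against 1.55% and 2.61% of all tested genes, and 3 had an unadjusted p under 0.05 (20.1% of tested genes). In R+S versus sunitinib 0 were higher and 0 lower by edgeR, against 2.63% and 4.58% of tested genes, with 4 of the 10 at an unadjusted p under 0.05 (30.4% of tested genes). DESeq2, run on the same genes, called 2 higher and 0 lower in sunitinib versus control, where it called 4.65% of all genes with an adjusted p higher and 4.41% lower. It called 1 higher and 1 lower (*Cldn1*) in R+S versus control (4.23% and 6.13% of all genes), and 1 higher (*Tjp1*) and 1 lower (*Cldn10*) in R+S versus sunitinib (7.8% and 11.7%, a share near that of the 10 genes). The median log2 fold changes of the 10 genes were 0.56, 0.82 and 0.027 in these comparisons, beside 0.031, 0.0094 and -0.025 over all tested genes. Each pair of these comparisons shares a group of tumors, so their values are not independent. In R+S versus control, the members whose tumors did not overlap were *Cldn9* and *Cldn10*, both higher, where 11.6% of tested genes were higher and 11.9% lower in every R+S tumor.

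**Figure D2:**
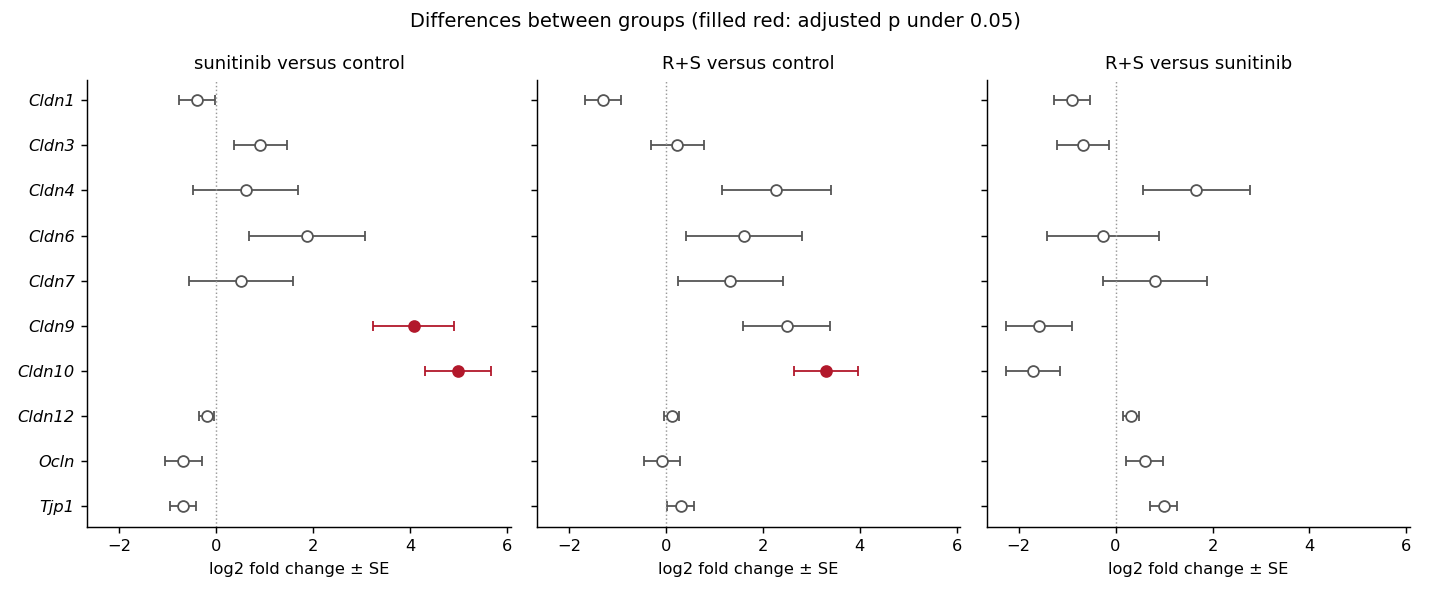
Log2 fold change ± SE of each gene in the 3 comparisons, from edgeR's quasi-likelihood fit of 12 tumors. Filled red points have an adjusted p under 0.05: *Cldn9* (4.07) and *Cldn10* (4.99) in sunitinib versus control and *Cldn10* (3.29) in R+S versus control.

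*Cldn10* (chr14:118787908-118875489, plus strand) encodes claudins that form ion-selective pores, and its values below cover all its transcripts together. Its normalized CPM was 0.150, 0.0265, 0.0254 and 0.141 in controls 1 to 4. It was 2.70, 4.95, 2.90 and 0.866 in sunitinib 5, 6, 8 and 12. It was 0.527, 1.19, 0.653 and 1.14 in R+S 4, 5, 7 and 10. Every treated tumor lay above every control, and sunitinib 12 lay within the range of the R+S tumors. Its log2 fold change was 4.99 ± 0.68 (SE) in sunitinib versus control (adjusted p = 0.0011) and 3.29 ± 0.66 in R+S versus control (adjusted p = 0.0176). Between R+S and sunitinib the log2 fold change was -1.70 ± 0.56, with an adjusted p of 0.0779 that did not pass.

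The reads behind these values were few in controls: 7, 1, 1 and 5, or 14 in all, against 422 in the sunitinib tumors and 136 in the R+S tumors. The ratio of the summed counts, scaled to library size, was 33.3 for sunitinib over control (exact 95% interval 19.6 to 61.4) and 10.1 for R+S over control (5.84 to 19.0). These intervals cover counting error only, since reads are not independent molecules, and not the spread between tumors. The higher level in sunitinib tumors passed in all 14 alternatives tried that kept the gene (adjusted p 1.28e-11 to 0.0104). The call in R+S was lost without control 2, control 3 or R+S 5 (adjusted p 0.054, 0.0666 and 0.0569), with a log2 fold change of 3.00 to 3.73 over the fits that left out 1 tumor. Without sunitinib 6, the tumor with low beta-cell markers, the log2 fold change in sunitinib versus control was 4.59 (adjusted p = 0.00121).

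*Cldn9* (chr17:23682584-23684026, minus strand), known for sealing ion compartments of the inner ear, was the scarcest of the set. Its counts were 2, 0, 2 and 0 in controls 1 to 4, 16, 17, 31 and 5 in sunitinib 5, 6, 8 and 12, and 2, 12, 2 and 8 in R+S 4, 5, 7 and 10. In normalized CPM these were 0.0428, 0, 0.0507 and 0 in controls, 0.408, 0.470, 0.818 and 0.160 in sunitinib tumors, and 0.0555, 0.303, 0.0544 and 0.198 in R+S tumors. The treated tumors all lay above the controls, but R+S 4 and 7, with 2 reads each, had no more reads than controls 1 and 3. A count of 0 allows up to 3 reads, or 0.0793 CPM in control 2 and 0.0845 in control 4, a level above that of R+S 4 and 7. The fitted log2 fold change was 4.07 ± 0.84 in sunitinib versus control (adjusted p = 0.0171) and 2.49 ± 0.90 in R+S versus control (adjusted p = 0.146). In R+S versus sunitinib it was -1.58 ± 0.67 (adjusted p = 0.142).

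With 4 reads in all controls, the fitted value of *Cldn9* depends on the prior count that edgeR adds. The ratio of summed counts was 19.0 for sunitinib over control (exact 95% interval 7.11 to 71.9) and 6.26 for R+S over control (2.15 to 24.8), again for counting error only. The call in sunitinib versus control was lost without control 4 (log2 fold change 3.74, adjusted p = 0.0552) and held in the other 11 alternatives that tested the gene (0.00213 to 0.0552 over the 12). Both *Cldn9* and *Cldn10* passed the filter on low counts through treated tumors, since their counts in controls were below its minimum of 10. *Cldn6*, the genomic neighbour of *Cldn9*, was highest in sunitinib 12, the sunitinib tumor in which *Cldn9* was lowest.

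Acinar markers were higher in both treated groups than in controls. The summed level of 22 acinar genes was 41.7 to 142 normalized CPM in controls, 12703 to 45353 in sunitinib tumors and 3414 to 19118 in R+S tumors. By the same test, 21 of the 22 were higher in sunitinib and in R+S than in controls, against 1.93% and 1.55% of all tested genes. The exception was *Bhlha15*, with log2 fold changes of -0.16 in sunitinib and -0.14 in R+S versus control. *Ptf1a*, the transcription factor that defines acinar cells, was at 0 in all 4 controls and between 0.625 and 5.09 CPM in every treated tumor. Within sunitinib tumors, *Cldn10* and the acinar sum were both highest in tumor 6 and both lowest in tumor 12, while *Cldn9* was highest in tumor 8. Within R+S tumors the orders differed, with *Cldn10* highest in tumor 5 and lowest in tumor 4 and the acinar sum highest in tumor 10 and lowest in tumor 7. The part of acinar cells in the *Cldn9* and *Cldn10* results was not tested, and in bulk tumors a changed share of a cell type and a changed amount of RNA per cell cannot be told apart.

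Of 9 duct genes, 8 were tested and 3 (*Sox9*, *Muc1* and *Spp1*) were higher in sunitinib than in control tumors, where 1.93% of all tested genes were. The summed duct level, however, overlapped between groups, at 460 to 621 CPM in controls, 332 to 714 in sunitinib and 502 to 572 in R+S tumors. It was made up mostly of *Krt7*, at a mean of 421 CPM in controls. The sum of 4 mesothelial genes was 0.228 to 0.428 CPM in controls, 1.93 to 10.3 in sunitinib and 0.707 to 2.11 in R+S tumors, and 2 of the 3 tested were higher in sunitinib tumors. Among sunitinib tumors it was highest in tumor 12, where *Cldn9* and *Cldn10* were lowest. The 5 intestinal genes summed to 5.03 to 12.1 CPM in controls, 7.26 to 21.7 in sunitinib and 8.44 to 19.6 in R+S tumors, and *Muc2* was called in sunitinib tumors. The part of these cells was not tested either.

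**Figure D3:**
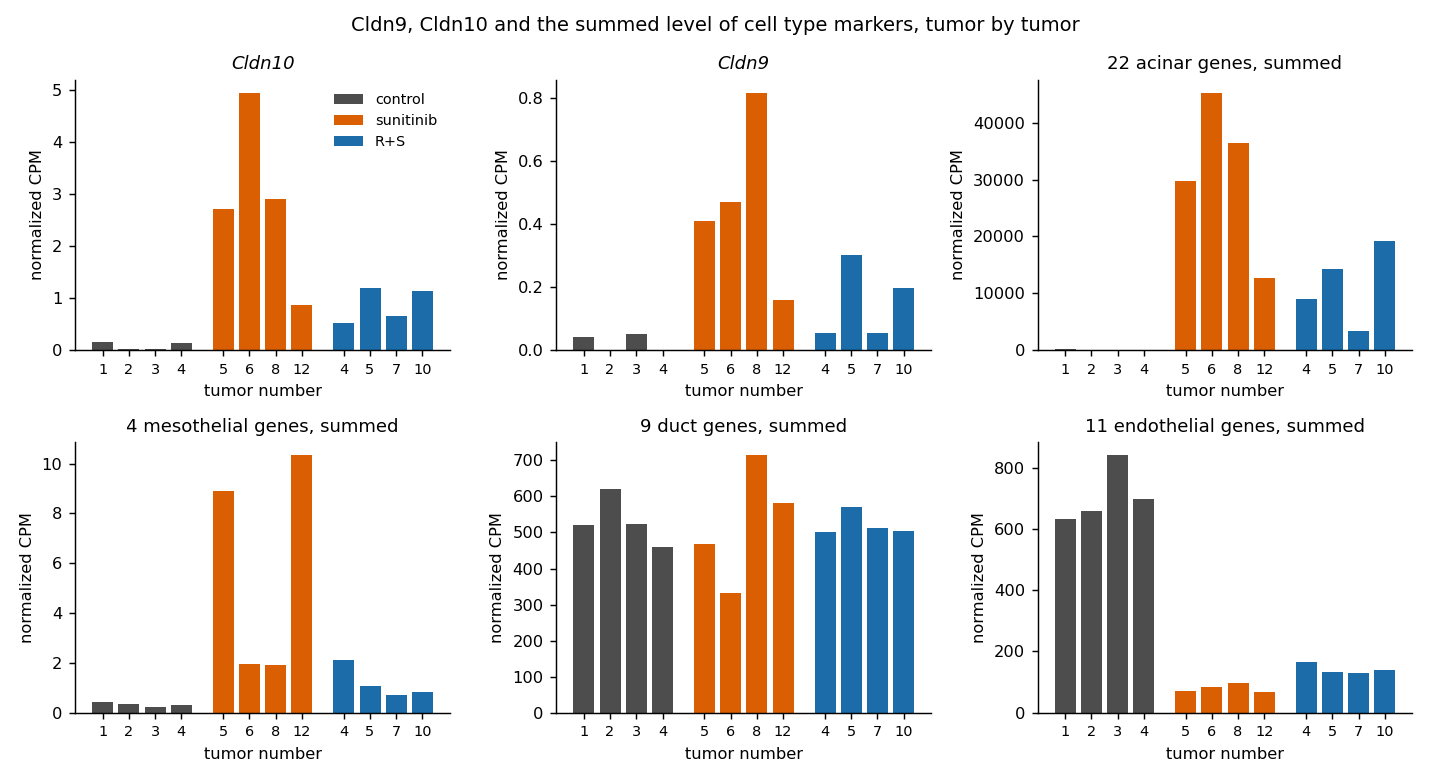
Normalized CPM of *Cldn10* and *Cldn9*, and the summed normalized CPM of acinar, mesothelial, duct and endothelial markers, as 1 bar per tumor with tumor numbers on the axis. *Cldn10*, *Cldn9* and the acinar sum are low in all controls and highest in sunitinib 6 or 8, and the endothelial sum is 631 to 840 in controls and 68.9 to 97.5 in sunitinib tumors.

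Over the 12 tumors, the genes whose centred log2 CPM lay nearest to *Cldn10* were *Myo5c*, a myosin of secretory epithelia (root mean square difference 0.445), and *Prom2* (0.475). *Myo5c* had means of 0.152, 4.36 and 1.10 CPM in control, sunitinib and R+S tumors. For *Cldn9* the nearest were *Hpn*, a membrane serine protease (0.399), and the duct marker *Muc1* (0.533), with *Hpn* at means of 0.646, 4.51 and 1.56 CPM. These are descriptions of likeness among 13294 candidate genes for *Cldn9* and 13293 for *Cldn10*. Of the spread of log2 CPM over the 12 tumors, 86.8% lay between groups for *Cldn10* and 73.1% for *Cldn9*, more than for any other of the 10 genes. These shares restate the group differences by which the 2 genes were called and are no separate evidence.

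*Cldn1* (chr16:26356642-26371841, minus strand), a sealing claudin needed for the skin barrier, had its lowest values in R+S tumors. Its normalized CPM was 12.8, 15.4, 27.1 and 24.7 in controls, 19.0, 8.68, 15.96 and 17.1 in sunitinib tumors, and 5.91, 14.3, 5.49 and 6.73 in R+S tumors. R+S 4, 7 and 10 lay below all controls, and R+S 5 lay between controls 1 and 2. Its log2 fold change in R+S versus control was -1.30 ± 0.37, and its adjusted p of 0.0726 did not pass. It passed in 4 of 15 alternatives (adjusted p 0.0102 to 0.208 over the 15), among them the fit without R+S 5 (-1.72, adjusted p = 0.0275). In sunitinib versus control it was -0.40 ± 0.37 (adjusted p = 0.579), and in R+S versus sunitinib -0.90 ± 0.37 (adjusted p = 0.128).

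*Cldn12* (chr5:5489537-5514958, minus strand), a claudin that lacks the usual tail for binding ZO proteins, had the smallest ratio of highest to lowest value of the 10 genes over the 12 tumors. Its normalized CPM was 52.6, 58.0, 42.8 and 44.4 in controls, 57.5, 34.1, 42.4 and 38.4 in sunitinib tumors, and 49.2, 56.1, 54.1 and 55.1 in R+S tumors. The 3 groups overlapped. The SD of its log2 CPM among R+S tumors was 0.0839, smaller than in 85.9% of tested genes. Its log2 fold changes were -0.20 ± 0.16 in sunitinib versus control (adjusted p = 0.526), 0.12 ± 0.16 in R+S versus control (0.73) and 0.31 ± 0.16 in R+S versus sunitinib (0.207). The last passed only without sunitinib 5 (0.47, adjusted p = 0.0393), among 15 alternatives that reached from 0.0393 to 0.348.

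**Figure D4:**
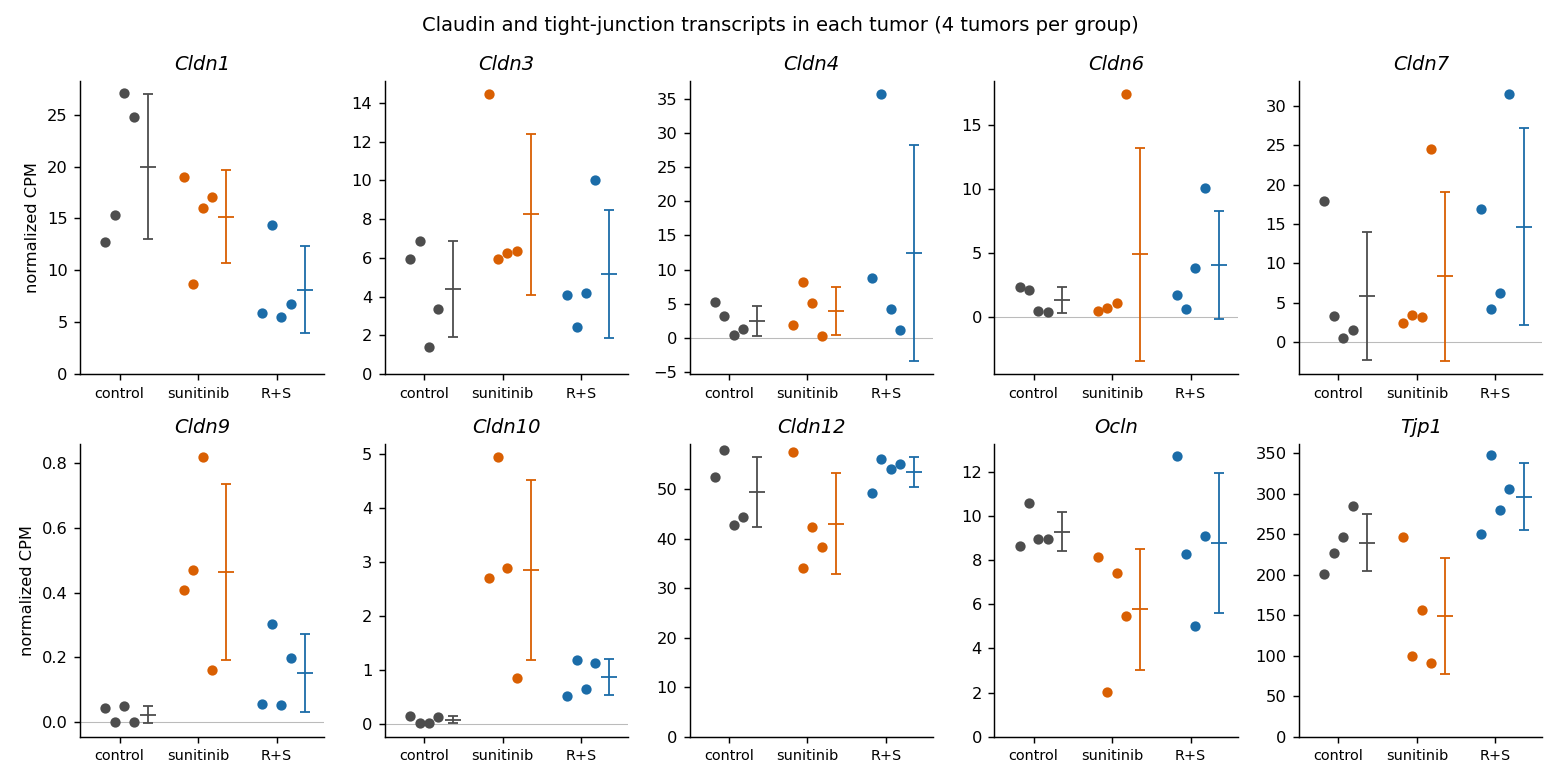
Normalized CPM of each of the 10 genes, with a point for each tumor (replicate numbers rising from left to right) and the mean ± SD beside it (n = 4). *Cldn10* is higher in every treated tumor than in every control, and *Cldn9* in every sunitinib tumor, while 2 R+S tumors have as few *Cldn9* reads as controls 1 and 3. *Cldn4*, *Cldn6* and *Cldn7* have single tumors far above the rest of their group, such as *Cldn6* at 17.4 in sunitinib 12.

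The sealing claudins *Cldn3*, *Cldn4* and *Cldn7* and the embryonic claudin *Cldn6* varied mostly within groups: 11% (*Cldn6*), 18.2% (*Cldn4*), 23.9% (*Cldn7*) and 26.2% (*Cldn3*) of the spread of log2 CPM lay between groups. *Cldn7* (chr11:69964779-69967885, plus strand) ranged 33.6-fold among controls, from 0.533 CPM in control 3 to 17.9 in control 1, with 3.28 in control 2 and 1.58 in control 4. In sunitinib tumors 5, 6, 8 and 12 it was 2.42, 3.40, 3.14 and 24.5, and in R+S tumors 4, 5, 7 and 10 it was 16.9, 4.17, 6.20 and 31.5. Single tumors of every group, control 1, sunitinib 12 and R+S 4 and 10, were therefore high, and the groups overlapped. The SD of its log2 CPM among controls was 2.08, and only 0.397% of tested genes had a larger one, against a median SD of 0.24 over all tested genes. Its log2 fold changes were 0.52 ± 1.07, 1.33 ± 1.08 and 0.81 ± 1.07 in sunitinib versus control, R+S versus control and R+S versus sunitinib (adjusted p = 0.817, 0.522 and 0.627). Without sunitinib 12 the first of these turned to -0.97. Over the fits that left out 1 tumor the second ran from 0.64 (without R+S 10) to 3.03 (without control 1) and the third from 0.12 (without R+S 10) to 2.30 (without sunitinib 12).

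*Cldn6* (chr17:23679249-23682446, plus strand) is known from embryonic epithelia. Its normalized CPM was 2.33, 2.12, 0.457 and 0.423 in controls, 0.459, 0.718, 1.08 and 17.4 in sunitinib tumors, and 1.75, 0.657, 3.86 and 10.1 in R+S tumors. Sunitinib 12 and R+S 10 were high, as they were for *Cldn7*, R+S 7 lay above the controls, and the other treated tumors lay within their range. In sunitinib versus control the log2 fold change was 1.87 ± 1.202 (adjusted p = 0.417) and turned to -0.83 without sunitinib 12. It was 1.61 ± 1.19 in R+S versus control (adjusted p = 0.48) and -0.26 ± 1.16 in R+S versus sunitinib (adjusted p = 0.898), where it turned to 2.44 without sunitinib 12 and to 0.099 without R+S 5.

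*Cldn4* (chr5:134945119-134946934, minus strand) and *Cldn3* (chr5:134986214-134987472, plus strand), both receptors of an enterotoxin of *Clostridium perfringens*, differed in which tumors were high. *Cldn4* was 5.35, 3.20, 0.406 and 1.32 CPM in controls, 1.99, 8.24, 5.14 and 0.289 in sunitinib tumors, and 8.74, 35.6, 4.32 and 1.11 in R+S tumors. Its highest value was in R+S 5, and the groups overlapped. The log2 fold change was 2.27 ± 1.12 in R+S versus control (adjusted p = 0.283), 0.60 ± 1.08 in sunitinib versus control (0.786, and -0.052 without sunitinib 6) and 1.67 ± 1.10 in R+S versus sunitinib (0.322). Without R+S 5 the first and the last of these were 0.88 and 0.27, the lowest of the fits that left out 1 tumor.

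*Cldn3* was 5.92, 6.85, 1.40 and 3.38 CPM in controls, 14.5, 5.94, 6.25 and 6.35 in sunitinib tumors, and 4.08, 2.45, 4.19 and 10.0 in R+S tumors. Its highest value was in sunitinib 5, and in R+S 5, where *Cldn4* was highest, it had the lowest value of its group. The groups overlapped. The log2 fold change was 0.91 ± 0.54 in sunitinib versus control (adjusted p = 0.379) and -0.67 ± 0.54 in R+S versus sunitinib (adjusted p = 0.415). In R+S versus control it was 0.24 ± 0.54 (adjusted p = 0.845), and it turned to -0.056 without control 3 and to -0.30 without R+S 10.

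Occludin (*Ocln*, chr13:100496507-100552718, minus strand), a strand protein of another family than the claudins, was 8.64, 10.6, 8.95 and 8.96 CPM in controls, 8.14, 2.04, 7.41 and 5.49 in sunitinib tumors, and 12.7, 8.28, 5.03 and 9.09 in R+S tumors. All 4 sunitinib tumors lay below all controls, sunitinib 5 (8.14 CPM) only narrowly, while R+S tumors lay on both sides of them. In that comparison the log2 fold change was -0.69 ± 0.38, and its adjusted p of 0.349 did not pass. Of all tested genes, 5.76% lay lower in every sunitinib tumor than in every control. Together with *Cldn9* and *Cldn10*, which lay higher (5.17% of tested genes), 3 of the 10 genes did not overlap between sunitinib and control. The log2 fold change was -0.080 ± 0.38 in R+S versus control (adjusted p = 0.934, and 0.031 with tumors of a prefix summed) and 0.61 ± 0.38 in R+S versus sunitinib (adjusted p = 0.3).

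ZO-1 (*Tjp1*, chr7:65296165-65527781, minus strand), the scaffold under the strands, was 201, 227, 247 and 285 CPM in controls, 247, 100.1, 157 and 91.7 in sunitinib tumors, and 250.4, 348, 281 and 306 in R+S tumors. Sunitinib 6, 8 and 12 lay below all controls, sunitinib 5 lay among them, and every R+S tumor lay above every sunitinib tumor. Of the 10 genes, it was the 1 whose R+S and sunitinib tumors did not overlap, against 8.9% of tested genes that lay higher and 9.73% that lay lower in every R+S tumor. Between R+S and sunitinib tumors the log2 fold change was 0.99 ± 0.28, with an adjusted p of 0.051 that did not pass. It passed in 4 of 15 alternatives (0.00762 to 0.136 over the 15), among them DESeq2 (0.98, adjusted p = 0.00886) and the fit without sunitinib 5 (1.34, adjusted p = 0.00762). Over all genes, that last fit called 1170 higher and 1691 lower, against 438 and 762 in the main fit.

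In sunitinib versus control the log2 fold change of *Tjp1* was -0.69 ± 0.27 (adjusted p = 0.193), and only the fit without sunitinib 5 passed (-1.03, adjusted p = 0.0194) among alternatives of 0.0194 to 0.403. In R+S versus control it was 0.30 ± 0.27 (adjusted p = 0.568). *Tjp1*, *Ocln*, *Cldn12* and *Cldn1* had the lowest or next-lowest value of their group in sunitinib 6, the tumor with few beta-cell marker reads. Without it the log2 fold changes in sunitinib versus control were -0.54 for *Tjp1*, -0.40 for *Ocln*, -0.099 for *Cldn12* and -0.20 for *Cldn1*, and the part of beta-cell content was not tested further. The endothelial markers, whose cells also express ZO-1, summed to 631 to 840 CPM in controls, 68.9 to 97.5 in sunitinib tumors and 129 to 167 in R+S tumors. Of these markers, 11 of 11 were lower in sunitinib and in R+S tumors, against 2.55% and 2.61% of all tested genes. Between R+S and sunitinib, 8 of the 11 were higher in R+S, with a median log2 fold change of 0.95 over the list, beside 0.99 for *Tjp1*. Against controls, the medians of the list were -2.93 in sunitinib and -1.92 in R+S tumors, beside -0.69 and 0.30 for *Tjp1*. Their part in the *Tjp1* values was not tested.

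The rest of the tight-junction machinery was read from 48 further genes, of which 39 passed the filter. By edgeR, in sunitinib versus control 1 of the 39 was higher and 1 lower, in R+S versus control 0 and 1, and in R+S versus sunitinib 2 and 1. Of all tested genes, 1.93% and 2.55%, 1.55% and 2.61%, and 2.63% and 4.58% were called higher and lower. At an unadjusted p under 0.05 there were 9, 3 and 10 of the 39, beside 19.5%, 20.1% and 30.4% of all tested genes. DESeq2 called 3 higher and 1 lower, 1 and 1, and 4 and 3 in these comparisons. Of all genes with an adjusted p it called 4.65% and 4.41%, 4.23% and 6.13%, and 7.8% and 11.7%. Their median log2 fold changes were -0.054, 0.021 and 0.067. Among the 15 other claudins 6 were tested, and 2 of these were called in sunitinib versus control: *Cldn8*, of the renal collecting duct, was higher (log2 fold change 2.90, adjusted p = 0.0367), at 0.0254 to 0.299 CPM in controls and 0.225 to 1.27 in sunitinib tumors, which overlapped. *Cldn5*, the claudin of endothelial cells, was lower in both treated groups, at 2.42 to 3.10 CPM in controls, 0.481 to 1.35 in sunitinib and 0.581 to 1.55 in R+S tumors, without overlap with controls.

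The log2 fold change of *Cldn5* was -1.60 ± 0.40 in sunitinib and -1.61 ± 0.40 in R+S tumors (adjusted p = 0.0442 and 0.0449), beside the endothelial markers that were lower in the same tumors. The call was lost in 10 and 9 of 15 alternatives, including 7 of the 8 fits in each comparison that left out 1 tumor, with log2 fold changes of -1.87 to -1.40 and -2.01 to -1.45. The call of *Cldn8* was lost in 5 of 8 such fits (without control 2, 3 or 4 or sunitinib 6 or 8), with only the 8 tumors compared and with tumors of a prefix summed. *Cldn11*, the claudin of myelin, was lower in R+S than in sunitinib tumors (-1.05, adjusted p = 0.0418), at 2.72 to 5.19 against 5.79 to 8.12 CPM. Its call was lost in 6 of the 8 fits that left out 1 tumor, with no filter, with only the 8 tumors compared and with tumors of a prefix summed. Some of these fits called almost no gene in this comparison, as given below. *Cldn2*, a cation and water pore, had means of 1.35, 1.35 and 1.41 CPM in control, sunitinib and R+S tumors (adjusted p = 0.999, 0.974 and 0.964). *Cldn18* was not tested, with at most 0.111 CPM in any tumor.

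Among scaffolds, *Amotl2*, an angiomotin-like protein, was higher in R+S than in sunitinib tumors (0.81, adjusted p = 0.0252), at 29.3 to 35.97 against 14.9 to 23.2 CPM, and the call was lost in 4 alternatives, without R+S 4, 5 or 7 and with only the 8 tumors compared. *Ildr1*, a protein of tricellular contacts, was higher in R+S than in sunitinib tumors (1.31, adjusted p = 0.0445), at 26.3 to 41.5 against 4.70 to 18.3 CPM. Its call was lost in 5 of the 8 fits that left out 1 tumor, with no filter and with only the 8 tumors compared. Over all genes, the fits without R+S 4, 5 or 7 called 0 higher and 0 to 1 lower in this comparison. With only the 8 tumors compared the calls were 0 and 3, so a call lost in these fits cannot be told apart from a loss over all genes. The call of *Ildr1* was also lost without sunitinib 12, without R+S 10 and with no filter (edgeR adjusted p = 0.0771, 0.0746 and 0.0618). Over all genes, those fits called 196 higher and 390 lower, 128 and 186, and 209 and 292. *Cldn11* lost its call in these fits too.

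The scaffolds *Tjp3* (ZO-3) and *Cgn* (cingulin) had log2 fold changes of -0.24 and -0.16 in sunitinib versus control. Those of the membrane proteins *F11r* (JAM-A), *Marveld2* (tricellulin) and *Lsr* (angulin-1) were -0.43, -0.41 and -0.036. Without sunitinib 6, the log2 fold changes of these 5 genes, in the order named, were -0.0038, -0.27, -0.11, -0.11 and 0.35. The same 5 genes were at 0.24, 0.14, -0.092, 0.29 and 0.031 in R+S versus control, and none of them passed the test in any comparison. Of 9 polarity genes 0 were called in any comparison by edgeR, with 1, 0 and 3 at an unadjusted p under 0.05 in the 3 comparisons, where 19.5%, 20.1% and 30.4% of all tested genes were. DESeq2 called 1, 0 and 3 of them, where it called 4.65%, 4.23% and 7.8% of all genes higher and 4.41%, 6.13% and 11.7% lower. Of 12 transcription and splicing factors of epithelial cells 0 were called by edgeR (5, 2 and 2 at an unadjusted p under 0.05, and 1, 0 and 2 by DESeq2), and *Grhl2*, an activator of claudin genes, came closest (3.19 in sunitinib versus control, adjusted p = 0.0525). Of 5 repressors of claudin genes such as *Snai1* and *Zeb1*, 4 were tested and 0 called by edgeR (1, 1 and 0 at an unadjusted p under 0.05, and 0, 1 and 0 by DESeq2), with *Snai1* at -1.30 in R+S versus control (adjusted p = 0.0502).

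**Figure D5:**
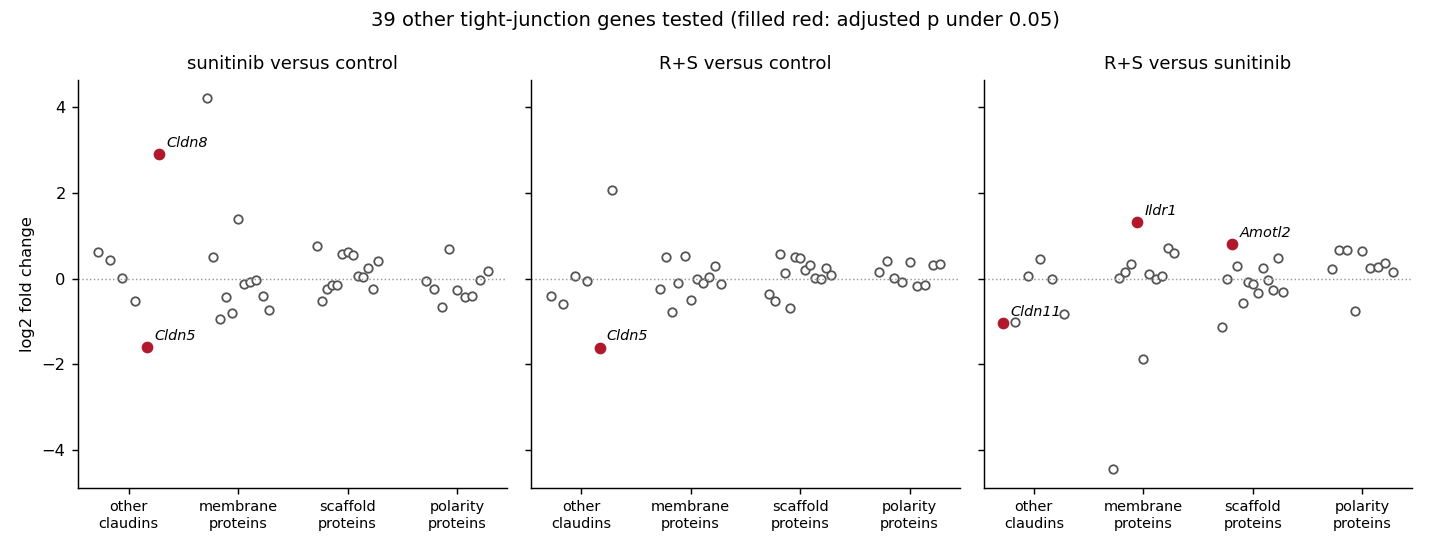
Log2 fold change of 39 other tight-junction genes in the 3 comparisons, grouped as other claudins, membrane, scaffold and polarity proteins. Filled red points have an adjusted p under 0.05 and are named: *Cldn8* and *Cldn5* in sunitinib versus control, *Cldn5* in R+S versus control, and *Ildr1*, *Amotl2* and *Cldn11* in R+S versus sunitinib.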

How the data were processed

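RNA from 12 RIP1Tag2 tumors (4 per group, grouped by the treatment in the sample labels) had been sequenced from stranded poly(A) libraries. The authors deposited, for each tumor, the raw counts of reads per Ensembl gene as whole numbers without normalization. The submitters' processing notes name cutadapt 1.2.1, TopHat2 2.0.9, HTSeq 0.5.4p3 and GRCm38, and the annotation release and the strand setting of the counting are not given in the sources used here. Reads with several alignments were left uncounted. The 5 closing summary lines of each table were left out.

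Counts of 38924 genes, 37607 with a symbol in GENCODE M21, were filtered by filterByExpr (minimum count 10, minimum total 15), normalized by TMM and tested by edgeR 4.0.16's quasi-likelihood F-test with robust estimation (R 4.3.3, limma 3.58.1) in 1 fit of 12 tumors with 3 group means. Benjamini-Hochberg adjustment ran over 16645 genes, with a threshold of 0.05, and the SE was taken as the absolute log2 fold change over the root of F. Log2 CPM for spread and overlap used a prior count of 2. Totals per tumor of 31872342 to 44215054 reads leave genes with few reads imprecise. Within each group the counts of any 2 tumors differed by more than sampling noise (chi-square per degree of freedom at least 22.97), and each tumor was counted as 1 sample. Sunitinib 6 stood furthest from its group, with at least 470 in each of its pairs. The Pearson correlation of log2 CPM was 0.872 to 0.895 in its pairs, against 0.957 to 0.978 in the other sunitinib pairs. The labels do not say whether the tumors of a group came from separate mice, so p-values measure the spread between these tumors.

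The 10 genes and the gene and marker lists were chosen with earlier results of these data known. Named besides the 10 genes were *Cldn2*, *Cldn5*, *Cldn18*, *Tjp3*, *Cgn*, *F11r*, *Marveld2* and *Lsr* whatever their values, up to 2 higher and 2 lower genes past the threshold per list and comparison, and the 2 genes nearest in profile to each called member among those with an average log2 CPM of at least 0. Markers and the genes *Grhl2*, *Snai1* and *Zeb1* are named as members of their lists, after their values were seen. 1 gene of the lists is not reported here. The script was checked on simulated counts. The alternatives were DESeq2 1.42.0, library-size scaling, DESeq2's size factors within edgeR, no filter, at least 10 counts in every tumor, only the 8 tumors compared, tumors of a label prefix summed in the treated groups, and each tumor left out in turn.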

Additional observations from a re-analysis of the deposited data

Results flagged for a closer look

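In each group of 4 tumors, the highest or lowest tumor was compared with the others by Dixon's ratio at the 95% level, for 21 genes and 63 groups in all. Chance marks about 1 in 20 groups where values are normally distributed, and 12 of the 63 were marked. The ratio was taken on CPM without a log scale, where that rate need not hold, so the number marked is no test of an excess. Among the 10 genes, the tumors that stood apart were R+S 5 for *Cldn1* (14.3 normalized CPM, others 5.49 to 6.73), sunitinib 5 for *Cldn3* (14.5, others 5.94 to 6.35), sunitinib 12 for *Cldn6* (17.4, others 0.459 to 1.08), control 1 for *Cldn7* (17.9, others 0.533 to 3.28), sunitinib 12 for *Cldn7* (24.5, others 2.42 to 3.40) and control 2 for *Ocln* (10.6, others 8.64 to 8.96). Sunitinib 12 is the sunitinib tumor whose label prefix differs from that of the other sunitinib tumors, and the part of the prefix was not tested.

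Among other junction genes, the tumors that stood apart were R+S 10 for *Tjp3* (6.93 CPM, others 3.69 to 4.19), control 1 for *Cgn* (56.2, others 44.8 to 45.6), sunitinib 6 for *Marveld2* (4.03, others 15.7 to 17.0), control 2 for *Lsr* (103.6, others 80.0 to 81.3), R+S 4 for *Lsr* (122, others 73.7 to 80.2) and control 3 for *Amotl2* (25.1, others 20.96 to 21.31).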

How the results depend on the processing

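Of 435 log2 fold changes of the 10 genes under alternatives, 411 kept their direction and their side of the threshold, 11 newly passed, 4 no longer passed and 9 changed sign. By DESeq2, 1 gene was lower in R+S than in control (*Cldn1*), 1 higher (*Tjp1*) and 1 lower (*Cldn10*) in R+S than in sunitinib. With at least 10 counts in every tumor, 0 genes were higher in sunitinib or in R+S than in control, since that filter removes *Cldn9* and *Cldn10*, and 1 (*Tjp1*) was higher in R+S than in sunitinib. With only the 8 tumors compared, 1 was higher in sunitinib than in control (*Cldn10*, as *Cldn9* was not tested there) and 1 lower in R+S than in control (*Cldn1*). With tumors of a prefix summed, these were again 1 and 1, *Cldn9* again not being tested, and 1 (*Tjp1*) was higher in R+S than in sunitinib. The controls, which share 1 prefix, were kept apart there, so that setting does not remove any dependence among them. Leaving out each tumor in turn gave 1 to 2 genes higher and 0 to 1 lower in sunitinib than in control, 0 to 1 higher and 0 to 1 lower in R+S than in control, and 0 to 2 higher in R+S than in sunitinib. The 2 higher were *Tjp1* and *Cldn12*, without sunitinib 5.

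Signs changed for genes that did not pass the threshold: over the fits without 1 tumor, log2 fold changes in sunitinib versus control ran from -0.052 to 1.25 for *Cldn4*, -0.83 to 2.29 for *Cldn6* and -0.97 to 2.21 for *Cldn7*, those in R+S versus control from -0.30 to 0.54 for *Cldn3* and -0.31 to 0.11 for *Ocln* (0.031 with prefixes summed), and that in R+S versus sunitinib from -1.23 to 2.44 for *Cldn6*. Apart from the fits named here as fewer samples or genes, the cause was not tested. Over all genes, the calls in R+S versus sunitinib were 438 higher and 762 lower. With only those 8 tumors in the fit they were 0 and 3. They were 0 and 1, 0 and 0, and 0 and 1 without R+S 4, 5 and 7, and 1170 and 1691 without sunitinib 5. In R+S versus control the calls were 258 and 435, and 1083 and 1474 with only those 8 tumors in the fit. No paired analysis was possible because the groups compared share fewer than 2 replicate numbers. Depth limits *Cldn9* most, with 4 reads in all controls.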
